A study of Homo sapiens with 18 samples.

Results

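Collagen chain genes were analyzed in OVCAR3-KRAB cells with and without XIST KD, in normoxia and in hypoxia. They were taken as the rows of the gene count table whose symbol is COL, a number, A and a number, which gave 44 of 28277 genes. The OVCAR3 line derives from an ovarian carcinoma. In OVCAR3-KRAB cells a nuclease-dead Cas9 joined to the KRAB repressor (dCas9-KRAB) is brought to a promoter by an sgRNA. RNA-seq was available from cells with sgCtl (the control guide), sgXIST7 or sgXIST9, guides against the promoter of XIST, each in normoxia and after 24 h in a chamber at 1% oxygen. The 6 groups held 3 replicates each, 18 libraries in total, and every group, the controls included, carried dCas9-KRAB and a guide. The cells were clonal, and the sources used here do not say whether the replicates of a guide came from 1 clone. The cells of each guide are called a clone here, and the guide cannot be told apart from other differences between clones. The study describes the replicates as biological, while the labels do not say whether they came from separate cultures; the p-values measure the spread between these libraries.

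Collagens are secreted or membrane proteins in which 3 chains wind into a helix of repeated glycine triplets. Fibrillar collagens (types I, III, V, XXVII and others) form the fibrils of connective tissue, FACITs such as types XII and XIV sit on those fibrils, type IV builds the basement membrane, and type VI forms beaded filaments next to cells. Chains are hydroxylated in the endoplasmic reticulum by enzymes that use molecular oxygen, and several of these enzymes, with the lysyl oxidases that crosslink the secreted fibrils, are known as targets of hypoxia-inducible factors. In ovarian cancer, collagen is mostly known as a product of the stroma, and its chains are read in tumor cell lines as part of a mesenchymal state.

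Library totals ranged from 11794375 to 24906936 counts. XIST, the targeted gene, had 4213 to 11209 counts in sgCtl, 1 to 5 in sgXIST7 and 650 to 1009 in sgXIST9 in normoxia, and it was lower in both KD clones in either oxygen condition (log2 fold changes of -11.52 and -3.41 in normoxia and of -10.75 and -2.88 in hypoxia). Within sgCtl, XIST was also lower in hypoxia than in normoxia (-1.485, adjusted p = 0.0059, edgeR quasi-likelihood test). Its values within sgXIST7 and sgXIST9 were -0.72 and -0.95 and were not called. Of the hypoxia genes CA9, VEGFA, NDRG1, ADM and ANKRD37, 4 of 5 rose in sgCtl and 5 of 5 in each KD clone. Of all genes tested, 11.3%, 15.1% and 14.7% were higher in sgCtl, sgXIST7 and sgXIST9. In normoxia, 1 of 5 was lower in sgXIST7 and 2 of 5 in sgXIST9 than in sgCtl, against 3.09% and 3.77% of all genes tested. ADM had 262.7 to 325 CPM in sgCtl-normoxia, 266.2 to 379.5 in sgCtl-hypoxia and 5.925 to 9.885 in the KD clones in normoxia. CA9 had 6 to 33 counts in sgCtl-hypoxia and 290 to 711 in the KD clones in hypoxia. Replicate 3 of each hypoxia group stood apart. Its correlation with the other libraries of its group was 0.953 to 0.964 in sgCtl and 0.975 to 0.984 in sgXIST7. In sgXIST9 it was 0.967 to 0.980, against at least 0.984 within the normoxia groups. Values without replicate 3 are therefore given for part of the members, mainly where a call changed. Of 10 ovarian and epithelial markers, EPCAM, KRT8, KRT18 and PAX8 were tested, while CDH1, KRT7, KRT19, MUC16, MECOM and WT1 had at most 2, 3, 8, 4, 3 and 14 counts in any library, so that several defining epithelial and ovarian markers were at or near 0. The summed level of that list was 297.5 to 517.2 CPM per library. The fibroblast list summed to 10.4 to 43.7 CPM, mostly THY1, while LUM, FAP and PDGFRB stayed at or under 8 counts and DCN at or under 30. In bulk RNA-seq, fewer cells of a type and less RNA per cell cannot be told apart.

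Collagen chains took 0.512% to 0.573% of all counts in sgCtl-normoxia, 1.02% to 1.30% in sgXIST7-normoxia and 0.481% to 0.507% in sgXIST9-normoxia. In hypoxia the share was 0.302% to 0.473%, 0.694% to 1.02% and 0.412% to 0.549%. Both sgXIST7 groups thus lay above every sgCtl and sgXIST9 library of the same oxygen condition, and sgCtl-hypoxia lay below sgCtl-normoxia. Levels are given as CPM (counts scaled to a common library size, with TMM factors), and levels of different genes are compared as CPM per kilobase of exon. The 44 members summed to 732.5 ± 16.9 CPM per kb (SD, n = 3) in sgCtl-normoxia, 1251 ± 76.2 in sgXIST7-normoxia and 605.3 ± 19.5 in sgXIST9-normoxia.

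A few chains made up nearly the whole. In sgCtl-normoxia, the 4 members with the highest level held 97.0% to 97.2% of the summed level, and in the other groups 86.3% to 94.9%. Per kilobase, the order over the 18 libraries was COL5A2 (mean 308.9 CPM per kb), COL12A1 (162.4), COL3A1 (146.9), COL6A3 (106.4), COL18A1 (25.7) and COL1A2 (12.5), followed by COL14A1 (9.74), COL6A1 (8.28), COL6A2 (4.13) and COL4A5 (4.04). COL7A1 came next at 2.59, and the remaining members were lower. The order changed with the clone. COL12A1 was at 1.55 CPM per kb in sgCtl-normoxia, at 421.9 in sgXIST7-normoxia and at 141.1 in sgXIST9-normoxia. In sgXIST7-normoxia it came before COL5A2 (398.5), although the libraries of these 2 genes overlapped.

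**Figure D1:**
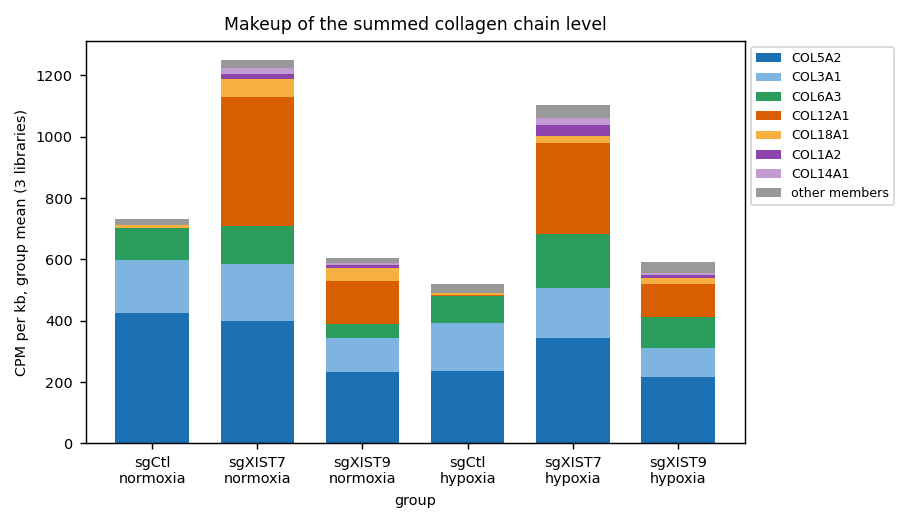
Stacked bars of the mean level of collagen chain genes in each of the 6 groups (vertical axis: CPM per kb, mean of 3 libraries), with 7 chains shown apart and the other members summed in grey. The COL12A1 segment is 1.55 CPM per kb in sgCtl-normoxia and 421.9 in sgXIST7-normoxia, while COL5A2 and COL3A1 are large in every group.

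COL5A2, which codes for the α2 chain of type V collagen, had 2988, 2810 and 2910 CPM in sgCtl-normoxia, 2902, 2639 and 2624 in sgXIST7-normoxia and 1656, 1539 and 1577 in sgXIST9-normoxia. In hypoxia it had 1306, 1087 and 2469 CPM in sgCtl, 2005, 2101 and 2929 in sgXIST7 and 1395, 1403 and 1634 in sgXIST9. It was called in none of the 10 contrasts, since its log2 fold changes stayed under 1 in size: -0.84 for hypoxia in sgCtl and -0.87 for sgXIST9 against sgCtl in normoxia, with adjusted p-values of 0.0038 and 0.0076 (edgeR quasi-likelihood test, Benjamini-Hochberg over 14938 genes). Without hypoxia replicate 3 of all clones, the first of these was -1.28 (adjusted p = 1e-08) and passed.

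COL3A1, the chain of type III collagen, is the neighbor of COL5A2 on chromosome 2, tail to tail with 19151 bases between them (hg38, chr2:188974373-189012746 and chr2:189031898-189179761). It had 965.5, 967.5 and 919.1 CPM in sgCtl-normoxia, 1016, 977.4 and 1060 in sgXIST7 and 594.5, 628.3 and 579.6 in sgXIST9. Its hypoxia values were 826.3, 996.5 and 732.6 in sgCtl, 975.2, 732.3 and 979.0 in sgXIST7 and 583.5, 629.1 and 355.9 in sgXIST9. The sgXIST9 libraries were the lowest in both conditions and did not overlap sgCtl (log2 fold changes of -0.66 and -0.70, under the threshold of 1).

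COL6A3, the large chain of type VI collagen, had 1066, 1246 and 995.4 CPM in sgCtl-normoxia, 1121, 1597 and 1286 in sgXIST7 and 504.0, 525.9 and 483.3 in sgXIST9. In hypoxia, sgCtl had 655.6 and 592.2 CPM in replicates 1 and 2 and 1578 in replicate 3, sgXIST7 had 1441, 1708 and 2480, and sgXIST9 had 984.5, 853.9 and 1370. The other chains of this heterotrimer were far lower per kilobase: COL6A1 ranged from 5.20 to 12.6 and COL6A2 from 1.53 to 6.01 CPM per kb over the 6 group means, while COL6A3 ranged from 47.2 to 175.4.

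**Figure D2:**
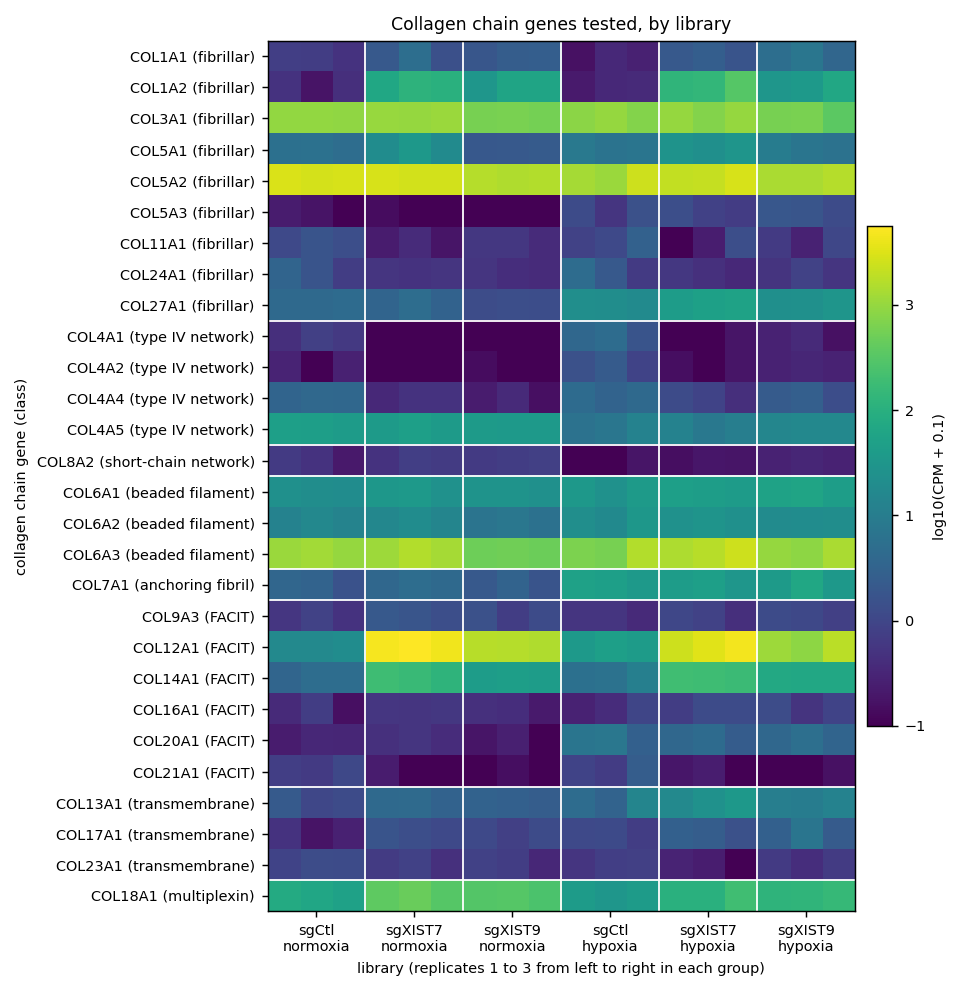
Tile map of the 28 collagen chain genes that passed the filter on low counts (rows, grouped by class) in the 18 libraries (columns, 3 per group), colored by log10(CPM + 0.1). COL5A2, COL3A1 and COL6A3 are bright in all libraries, COL12A1, COL1A2 and COL14A1 are bright in the KD clones, and COL7A1, COL27A1 and COL20A1 brighten in the hypoxia groups.

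The comparison of hypoxia with normoxia within each clone asks which chains follow oxygen. Of the 44 members, 28 passed the filter on low counts and were tested among 14938 genes; calls required an adjusted p-value under 0.01 and a log2 fold change above 1 in size. In sgCtl, 10 members were called, or 35.7% of those tested, against 19.7% of all genes tested; 8 were higher and 2 lower, against 11.3% and 8.49% of all genes. In sgXIST7, 10 were called (35.7% against 27.3%), with 5 higher and 5 lower against 15.1% and 12.2% of all genes. In sgXIST9, 13 were called (46.4% against 23.3%), with 11 higher and 2 lower against 14.7% and 8.58%. The libraries of the groups did not overlap for 19, 14 and 19 of the 28 members in sgCtl, sgXIST7 and sgXIST9, against 54.9%, 63.9% and 65.9% of all genes, which is near the background. The median log2 fold change over the tested members was 0.48, 0.58 and 1.04 in the 3 clones (0.48, 0.49 and 0.72 where bounds against the detection limit replace fitted values), and 0.02, 0.01 and 0.09 over all genes tested. Members pass the filter more easily where hypoxia lifts them, so these shares describe the tested chains only.

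A set of 5 chains rose in all 3 clones: COL7A1, COL27A1, COL20A1, COL13A1 and COL5A3. COL4A5 fell in all 3. Among all genes tested, 6.99% were called higher and 4.63% lower in all 3 clones. COL7A1, the chain of the anchoring fibrils that fasten epithelium to the matrix, had 3.62, 3.17 and 1.49 CPM in sgCtl-normoxia and 52.4, 48.4 and 35.7 in sgCtl-hypoxia. In sgXIST7 it went from 3.68, 4.94 and 4.18 to 42.3, 48.6 and 31.6 CPM, and in sgXIST9 from 2.01, 3.13 and 1.64 to 38.2, 68.4 and 33.6. The groups did not overlap in any clone, and the log2 fold changes were 4.06 ± 0.34 (SE), 3.27 ± 0.31 and 4.37 ± 0.34, with adjusted p-values of 7.6e-08, 1.8e-07 and 2.2e-08.

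COL27A1, a fibrillar chain known from cartilage, also rose in all clones. It had 4.16, 4.10 and 4.54 CPM in sgCtl-normoxia and 22.4, 21.3 and 18.4 in sgCtl-hypoxia, a log2 fold change of 2.28 ± 0.18 (SE, adjusted p = 3.7e-08). In sgXIST7 the values were 3.24, 4.78 and 2.96 in normoxia and 41.3, 50.02 and 55.3 in hypoxia (3.75 ± 0.18, adjusted p = 1.5e-10). In sgXIST9 they were 1.16, 1.28 and 1.23 in normoxia and 23.5, 24.1 and 30.0 in hypoxia (4.40 ± 0.20, adjusted p = 8e-11). The response was thus larger in both KD clones: by 1.47 ± 0.24 in sgXIST7 (adjusted p = 0.0027) and by 2.12 ± 0.26 in sgXIST9 (adjusted p = 0.00031). In sgXIST9 the difference goes with a lower starting level, since hypoxic levels in sgXIST9 and sgCtl differed by only 0.32 (adjusted p = 0.15), whereas the hypoxic level in sgXIST7 was higher than in sgCtl by 1.24 ± 0.16 (adjusted p = 1.5e-05). The sgXIST7 difference was no longer called when sgCtl-normoxia replicate 3 or sgXIST7-normoxia replicate 3 was left out, or in the fit of only the groups compared (adjusted p-values of 0.01 to 0.012).

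COL20A1, a little studied FACIT chain, was close to the detection limit in normoxia (0 to 8 counts per library) and had 109, 152 and 31 counts in sgCtl-hypoxia, 80, 98 and 27 in sgXIST7 and 83, 115 and 52 in sgXIST9. As CPM, these were 6.81, 7.54 and 2.75, then 3.82, 4.44 and 2.33, then 3.78, 5.22 and 3.28. The log2 fold changes were 4.81 ± 0.50 in sgCtl and 3.28 ± 0.44 in sgXIST7 (adjusted p-values of 8.6e-07 and 7.1e-06). The level in sgXIST9 was at least 26.2-fold higher than 3 counts per library, the detection limit used here.

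COL13A1, a transmembrane collagen of cell adhesion sites, had 2.15, 0.928 and 1.09 CPM in sgCtl-normoxia and 4.63, 3.13 and 14.4 in sgCtl-hypoxia, where replicate 3 was the highest. It had 4.11, 4.22 and 3.05 CPM in sgXIST7-normoxia and 17.1, 24.9 and 33.6 in sgXIST7-hypoxia, and 2.95, 2.71 and 2.39 in sgXIST9-normoxia and 10.6, 9.89 and 12.7 in sgXIST9-hypoxia. The groups did not overlap in any clone (log2 fold changes of 2.37 ± 0.48, 2.73 ± 0.43 and 2.04 ± 0.43). Without hypoxia replicate 3 of all clones, the value in sgCtl was 1.47 ± 0.31 (adjusted p = 0.00057); in the fit of only the groups compared it was not called (adjusted p = 0.016).

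COL5A3, the third chain of type V collagen, had 0 to 2 counts in every normoxia library and 18, 9 and 16 counts in sgCtl-hypoxia, 27, 16 and 7 in sgXIST7 and 40, 37 and 18 in sgXIST9. It was at least 4.94-fold, 6.13-fold and 9.90-fold higher in hypoxia, with adjusted p-values of 0.00075, 6.8e-05 and 8.5e-06. Its level stayed low, at 0.249 CPM per kb or less in the group means.

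The bases upstream of these hypoxia-responsive genes, and of COL12A1, are shown because a factor's binding there is the textbook way to oxygen control; they were taken from RefSeq promoters (GRCh38.p14), 250 bases before the start and on the gene's strand. Entries matched 32 of the 44 members with 44 windows; COL20A1, COL1A2, COL1A1, COL3A1, COL5A2 and COL14A1 were among those without. The windows are chr3:48595330-48595579 (minus strand) for COL7A1, chr9:114155287-114155536 (plus) for COL27A1, chr10:69801656-69801905 (plus) for COL13A1, chr19:10010505-10010754 (minus) for COL5A3 and chr6:75206054-75206303 (minus) for COL12A1. Capitals mark the letters ACGTG and GCGTG on either strand (CACGT and CACGC when read on the other), the core of the hypoxia response element; CACGTG would match on both strands.
COL7A1: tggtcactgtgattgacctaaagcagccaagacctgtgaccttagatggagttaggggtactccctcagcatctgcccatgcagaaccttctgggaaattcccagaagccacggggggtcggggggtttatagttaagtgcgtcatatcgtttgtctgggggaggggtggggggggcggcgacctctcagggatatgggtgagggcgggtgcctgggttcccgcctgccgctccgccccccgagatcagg
COL27A1: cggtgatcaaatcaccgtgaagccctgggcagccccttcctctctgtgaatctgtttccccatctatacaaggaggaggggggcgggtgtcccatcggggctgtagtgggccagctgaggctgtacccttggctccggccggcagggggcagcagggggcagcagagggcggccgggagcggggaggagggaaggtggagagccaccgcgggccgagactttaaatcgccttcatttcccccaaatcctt
COL13A1: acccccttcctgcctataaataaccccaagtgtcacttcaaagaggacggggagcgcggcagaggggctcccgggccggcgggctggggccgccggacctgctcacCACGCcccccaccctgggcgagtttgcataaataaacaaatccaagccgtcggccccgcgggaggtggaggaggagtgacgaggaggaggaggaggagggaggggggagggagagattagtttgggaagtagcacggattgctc
COL5A3: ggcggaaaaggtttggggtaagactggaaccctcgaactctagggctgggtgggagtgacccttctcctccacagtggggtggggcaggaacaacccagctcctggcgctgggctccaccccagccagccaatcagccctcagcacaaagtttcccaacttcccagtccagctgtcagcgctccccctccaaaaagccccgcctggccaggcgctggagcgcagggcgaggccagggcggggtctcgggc
COL12A1: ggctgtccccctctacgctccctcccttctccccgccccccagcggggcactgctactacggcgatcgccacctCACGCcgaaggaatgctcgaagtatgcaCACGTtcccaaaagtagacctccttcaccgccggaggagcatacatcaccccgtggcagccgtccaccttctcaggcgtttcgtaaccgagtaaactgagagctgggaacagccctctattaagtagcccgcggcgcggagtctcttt

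In these windows COL13A1 held 1 match of GCGTG, COL12A1 held 1 of each, and COL7A1, COL27A1 and COL5A3 held 0. Of all 35116 RefSeq windows of this length, 18.5% held ACGTG, 32.2% GCGTG and 43.2% either; of the 44 windows of collagen chains, 15.9%, 34.1% and 40.9% did. A match is no evidence of binding, and 0 matches concern only these 250 bases. The RefSeq start of COL7A1 also lies upstream of the start in the deposited annotation.

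**Figure D3:**
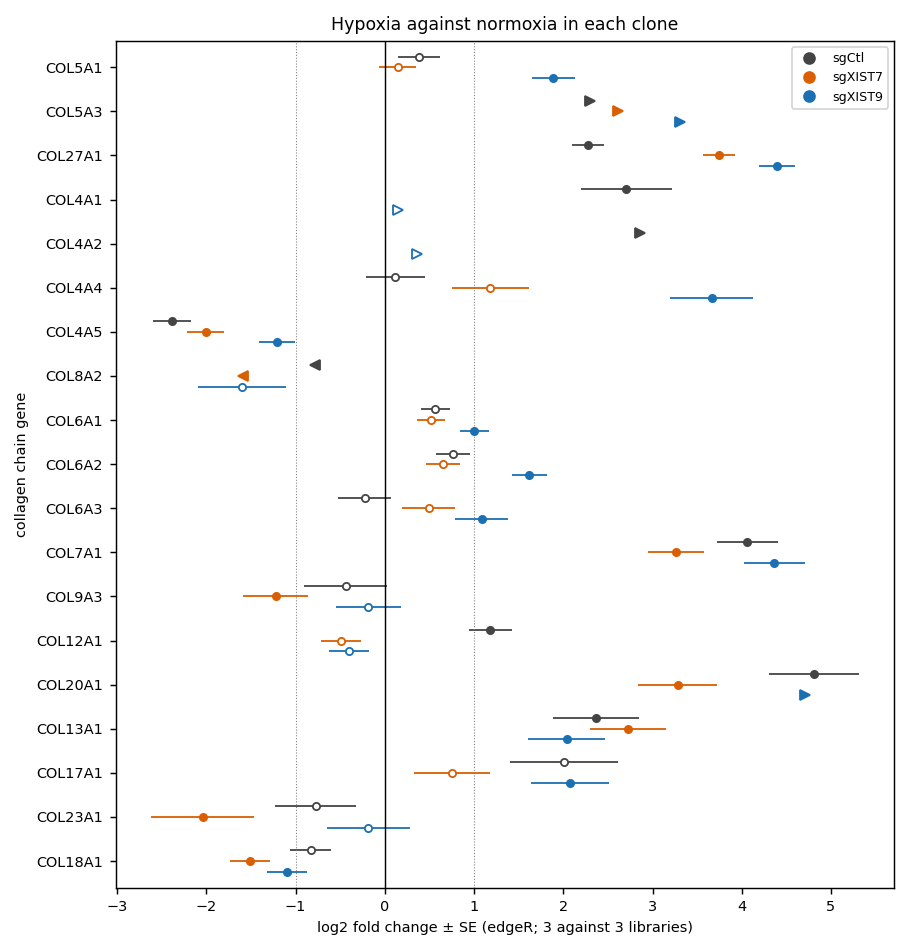
Log2 fold change of hypoxia against normoxia (horizontal axis, points with SE bars, 3 against 3 libraries) for the 19 collagen chain genes called in at least 1 clone, in sgCtl (grey), sgXIST7 (orange) and sgXIST9 (blue). Filled symbols passed the threshold and triangles are lower bounds against the detection limit; COL7A1, COL27A1, COL20A1, COL13A1 and COL5A3 lie to the right and COL4A5 to the left in all clones.

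Type IV chains went in different directions. COL4A5, an X-linked chain of the glomerular and epithelial basement membrane (chrX:108439838-108697545), had 47.2, 45.3 and 39.8 CPM in sgCtl-normoxia and 6.001, 7.34 and 12.4 in sgCtl-hypoxia. It went from 37.8, 48.7 and 39.2 to 12.7, 8.02 and 10.6 CPM in sgXIST7 and from 38.6, 35.1 and 37.0 to 15.1, 16.6 and 16.2 in sgXIST9. The log2 fold changes were -2.38 ± 0.21, -2.01 ± 0.21 and -1.21 ± 0.20 (adjusted p-values of 1.6e-07, 3.9e-07 and 8e-05). The fall in sgXIST9 was smaller than in sgCtl by 1.18 ± 0.29 (adjusted p = 0.025), which missed the threshold with all libraries and passed it without hypoxia replicate 3 of all clones (1.502 ± 0.24, adjusted p = 0.00043). In normoxia its level was -0.08 and -0.26 on the log2 scale against sgCtl in sgXIST7 and sgXIST9, and neither was called.

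COL4A5 lies head to head with COL4A6, 379 bases apart, and COL4A6 had at most 12 counts in any library and was not tested. COL4A1 and COL4A2, the chains of the ubiquitous basement membrane network, are also head to head. In the 250-base windows used above, COL4A2 held 1 match of GCGTG and COL4A1 held 0 matches of either. The 126 bases between their starts (chr13:110307158-110307283, plus strand) are printed because the 2 genes share them, and they held 0 matches of ACGTG or GCGTG.
COL4A1-COL4A2: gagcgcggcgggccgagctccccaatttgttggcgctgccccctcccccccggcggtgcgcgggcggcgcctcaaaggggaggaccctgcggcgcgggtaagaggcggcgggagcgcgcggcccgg

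Both were near the detection limit, with 5, 9 and 9 counts of COL4A1 and 3, 0 and 3 of COL4A2 in sgCtl-normoxia. In sgCtl-hypoxia COL4A1 had 61, 92 and 18 counts and COL4A2 had 22, 45 and 9. Both rose, COL4A1 by 2.71 ± 0.51 on the log2 scale (adjusted p = 0.00064) and COL4A2 at least 7.28-fold (adjusted p = 0.00036). In the KD clones COL4A1 had 0 counts in all 6 normoxia libraries, 0, 0 and 1 in sgXIST7-hypoxia and 4, 6 and 1 in sgXIST9-hypoxia. COL4A2 had 0 or 1 in normoxia, 1, 0 and 1 in sgXIST7-hypoxia and 4, 5 and 3 in sgXIST9-hypoxia, so that both genes were highest in sgCtl-hypoxia. In sgCtl-normoxia, COL4A1 was above the detection limit of 3 counts and COL4A2 was not. The COL4A1 rise in sgXIST9 was not called in the main fit, and was called with DESeq2, with upper-quartile factors and without hypoxia replicate 3 of all clones.

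COL4A4, which pairs head to head with COL4A3 (418 bases apart; COL4A3 had at most 6 counts and was not tested), had 3.29, 3.87 and 3.67 CPM in sgCtl-normoxia and 4.50, 3.13 and 4.17 in sgCtl-hypoxia. In sgXIST7 it had 0.259, 0.389 and 0.392 in normoxia and 1.10, 0.816 and 0.345 in hypoxia. In sgXIST9 it had 0.134, 0.266 and 0.0584 in normoxia (3, 5 and 1 counts) and 2.23, 2.59 and 1.20 in hypoxia. Hypoxia was called in sgXIST9 alone, with a log2 fold change of 3.66 ± 0.46 (adjusted p = 4.6e-06) against 0.12 ± 0.33 in sgCtl. The difference between these responses was 3.54 ± 0.58 (adjusted p = 0.0025); it was not called without sgXIST9-normoxia replicate 1 or replicate 3, while its lowest value over all alternatives was 3.21. In sgXIST7 the response was 1.18 ± 0.43 (adjusted p = 0.027), and 1.47 ± 0.37 (adjusted p = 0.0025) without hypoxia replicate 3 of all clones.

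COL18A1 and COL8A2 were also lower in hypoxia. COL18A1, a multiplexin of the basement membrane whose C-terminal fragment is endostatin, had 80.2, 65.6 and 51.2 CPM in sgCtl-normoxia and 39.9, 30.6 and 40.4 in sgCtl-hypoxia, 371.4, 451.7 and 316.0 in sgXIST7-normoxia and 103.2, 102.3 and 194.2 in sgXIST7-hypoxia, and 304.0, 315.9 and 249.5 in sgXIST9-normoxia and 124.2, 128.6 and 153.6 in sgXIST9-hypoxia. It fell in sgXIST7 (-1.51 ± 0.23, adjusted p = 2.4e-05) and in sgXIST9 (-1.10 ± 0.23, adjusted p = 0.00057), and its value in sgCtl, -0.83 ± 0.23, was under the size threshold. COL18A1 shares 1156 exon bases with SLC19A1 on the other strand, and SLC19A1 was also lower in hypoxia (log2 fold changes of -1.49, -2.26 and -1.82). Whether the counting used strand is not given in the sources used here, so the part of shared reads in these values was not tested. COL8A2, a short-chain network collagen, had 8, 5 and 2 counts in sgCtl-normoxia and 0, 0 and 1 in sgCtl-hypoxia, at least 1.72-fold lower. In sgXIST7 it had 9, 12 and 13 counts in normoxia and 1, 2 and 1 in hypoxia, at least 3.01-fold lower. In sgXIST9 it had 12, 12 and 12 counts in normoxia and 4, 5 and 3 in hypoxia (adjusted p = 0.011, not called). The sgCtl call was lost without sgCtl-normoxia replicate 1, sgCtl-hypoxia replicate 1 or sgCtl-hypoxia replicate 2, with adjusted p-values up to 0.016.

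Type VI chains were called in the hypoxia contrast of sgXIST9. COL6A1 had 27.2, 27.8 and 24.2 CPM in sgXIST9-normoxia and 54.5, 59.8 and 44.4 in hypoxia (log2 fold change of 1.00 ± 0.16). It had 24.0, 21.3 and 20.3 against 33.2, 25.3 and 38.9 in sgCtl and 31.9, 35.9 and 25.1 against 47.7, 44.1 and 41.01 in sgXIST7, and these responses of 0.56 and 0.52 were not called. COL6A2, which lies 93063 bases from COL6A1 on chromosome 21, had 6.70, 7.38 and 5.84 CPM in sgXIST9-normoxia and 19.6, 20.6 and 21.0 in hypoxia (1.62 ± 0.20, adjusted p = 3.1e-06). It had 12.5, 16.5 and 13.2 against 22.0, 17.9 and 32.0 in sgCtl (0.76) and 15.4, 20.2 and 14.5 against 25.5, 28.8 and 24.1 in sgXIST7 (0.65). COL6A3 rose by 1.08 ± 0.30 (adjusted p = 0.0052) in sgXIST9, with -0.23 in sgCtl and 0.49 in sgXIST7. The differences from sgCtl were 0.44, 0.85 and 1.31 for COL6A1, COL6A2 and COL6A3, and none passed the threshold (adjusted p-values of 0.28, 0.076 and 0.076). Without hypoxia replicate 3 of all clones, those of COL6A2 (1.09 ± 0.24, adjusted p = 0.0037) and COL6A3 (1.69 ± 0.19, adjusted p = 3.1e-05) passed, while COL6A3 itself was no longer called in sgXIST9. Both calls at the threshold in sgXIST9 were fragile: COL6A1 fell under the size threshold without sgXIST9-normoxia replicate 3 or sgXIST9-hypoxia replicate 1 or 2 (0.91 to 0.99) and with DESeq2, and COL6A3 was lost without any sgXIST9-normoxia library or sgXIST9-hypoxia replicate 3, with adjusted p-values up to 0.031.

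COL5A1, the main chain of type V collagen, also rose in sgXIST9, from 1.92, 2.02 and 2.16 CPM to 9.71, 6.81 and 5.996 (1.89 ± 0.24, adjusted p = 6.1e-06). It had 5.64, 5.88 and 4.88 CPM in sgCtl-normoxia and 8.19, 6.35 and 6.82 in sgCtl-hypoxia, and 20.3, 34.0 and 18.7 in sgXIST7-normoxia and 27.4, 23.3 and 29.8 in sgXIST7-hypoxia. The response in sgXIST9 was larger than in sgCtl by 1.504 ± 0.34 (adjusted p = 0.016, not called). COL17A1, the hemidesmosomal transmembrane collagen, rose in sgXIST9 from 23, 13 and 19 counts to 60, 153 and 35 (2.07 ± 0.43, adjusted p = 0.00066). It had 6, 1 and 3 counts in sgCtl-normoxia and 16, 21 and 7 in sgCtl-hypoxia (adjusted p = 0.011, not called), and 38, 23 and 23 against 57, 53 and 16 in sgXIST7. The sgCtl rise was called with DESeq2, with median-of-ratios factors and with no filter. Without hypoxia replicate 3 of all clones it was 2.18 ± 0.57 and passed, so this rise was not particular to sgXIST9.

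COL23A1, a transmembrane chain, and COL9A3, a FACIT chain of cartilage, fell in sgXIST7 at low counts: from 13, 13 and 8 to 4, 3 and 0 counts (-2.04 ± 0.58, adjusted p = 0.0059) and from 47, 30 and 29 to 19, 17 and 4 counts (-1.22 ± 0.37, adjusted p = 0.0086). Both calls were lost when sgXIST7-normoxia replicate 1 or 2 or sgXIST7-hypoxia replicate 2 or 3 was left out, with adjusted p-values up to 0.024 and 0.043. In sgCtl, COL23A1 had 12, 15 and 19 counts in normoxia and 7, 13 and 8 in hypoxia, and COL9A3 had 7, 10 and 7 and then 7, 9 and 3. In sgXIST9, COL23A1 had 16, 12 and 4 counts and then 12, 7 and 9, and COL9A3 had 31, 12 and 19 and then 24, 21 and 11.

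COL12A1 rose in hypoxia in sgCtl, from 16.7, 17.3 and 20.6 to 36.3, 47.1 and 40.6 CPM (1.18 ± 0.24, adjusted p = 0.00056). In sgXIST7 it had 4830, 5584 and 4427 CPM in normoxia and 2432, 3473 and 4623 in hypoxia, and in sgXIST9 1738, 1676 and 1550 in normoxia and 1108, 883.6 and 1778 in hypoxia. The groups overlapped in both KD clones (-0.50 ± 0.22 and -0.40 ± 0.22, not called). The response in sgXIST7 minus that in sgCtl was -1.68 ± 0.33 (adjusted p = 0.0064), and in sgXIST9 the difference was -1.58 ± 0.33 (adjusted p = 0.011, not called). The first of these calls was lost when any of the normoxia libraries of sgCtl or sgXIST7, replicate 1 or 2 of sgCtl-hypoxia or replicate 2 of sgXIST7-hypoxia was left out, with adjusted p-values up to 0.023.

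The comparison of the KD clones with sgCtl asks which chains go with loss of XIST; both comparisons use the same sgCtl libraries, so their values are given side by side. In normoxia, 11 of the 28 members tested were called in sgXIST7 (39.3% against 7.76% of all genes tested) and 11 in sgXIST9 (39.3% against 7.7%). In sgXIST7, 8 were higher and 3 lower, against 4.67% and 3.09% of all genes, and in sgXIST9 5 were higher and 6 lower, against 3.93% and 3.77%. Groups did not overlap for 19 and 21 of the 28 members, against 45.5% and 53.9% of all genes. The median log2 fold changes over the tested members were 0.39 and -0.76 (0.57 and -0.31 with bounds), and -0.01 and -0.02 over all genes tested. Members can pass the filter through a clone where they are high, as COL1A2 does through the KD clones and COL4A1 through sgCtl. These shares, and those of the clone contrasts below, therefore describe the tested chains only. The fibroblast marker list summed to 19.5 to 24.2 CPM in sgCtl-normoxia, 35.3 to 43.7 in sgXIST7 and 24.4 to 27.5 in sgXIST9; most of this sum was THY1, which was not called (17.5 to 20.1 CPM in sgCtl, 34.4 to 43.2 in sgXIST7 and 23.3 to 26.8 in sgXIST9). Of its 7 genes 3 were tested, 0 were higher in either clone, and POSTN was lower in sgXIST9 (log2 fold change of -2.48, adjusted p = 0.007) with -2.15 in sgXIST7 (adjusted p = 0.013, not called). Of the ovarian and epithelial markers, 4 of 10 were tested and KRT8 was higher in both clones (1.92 and 1.89). The part of these markers in the collagen values was not tested.

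COL12A1, a FACIT of dense connective tissue and of activated stroma (chr6:75084326-75206053, minus strand), had the largest rise in level. It was at 16.7 to 20.6 CPM in sgCtl, 4427 to 5584 in sgXIST7 and 1550 to 1738 in sgXIST9, with log2 fold changes of 8.09 ± 0.31 (adjusted p = 5.9e-12) and 6.51 ± 0.29 (adjusted p = 3.8e-11). It took 0.191% to 0.246% of the summed collagen level per kilobase in sgCtl, 32.0% to 35.8% in sgXIST7 and 22.7% to 23.9% in sgXIST9. COL14A1, the FACIT most like COL12A1 in structure, had 3.49, 4.80 and 4.88 CPM in sgCtl, 186.4, 165.8 and 124.0 in sgXIST7 and 42.1, 46.5 and 41.6 in sgXIST9 (5.17 ± 0.23 and 3.30 ± 0.22, adjusted p-values of 4.4e-11 and 8e-09). For both genes, all libraries of a KD clone were above all sgCtl libraries, and those of sgXIST7 were above those of sgXIST9.

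Of the chains of type I collagen, the main fibril of connective tissue, COL1A2 (chr7:94394895-94431227) had the larger rise in RNA. It had 6, 1 and 6 counts in sgCtl, 1567, 2112 and 2412 in sgXIST7 and 708, 1091 and 992 in sgXIST9, which are 0.403, 0.0774 and 0.344 CPM, then 67.8, 117.3 and 105.1, then 31.6, 58.0 and 57.9. The log2 fold changes were 8.37 ± 0.59 and 7.39 ± 0.60 (adjusted p-values of 2.6e-08 and 9.6e-08). COL1A1, its partner chain, had 10, 8 and 7 counts in sgCtl, 47, 90 and 31 in sgXIST7 and 39, 46 and 44 in sgXIST9 (2.30 ± 0.47 and 1.995 ± 0.48, adjusted p-values of 0.0017 and 0.0057). Per kilobase, COL1A2 was 27.4 to 90.9 times COL1A1 in the libraries of sgXIST7-normoxia and 21.2 to 27.7 times in sgXIST9-normoxia, although the protein contains more of the α1 chain. The COL1A1 call was lost in sgXIST7 without sgCtl-normoxia replicate 3 or sgXIST7-normoxia replicate 2, and in sgXIST9 without any of the sgCtl-normoxia libraries or without sgXIST9-normoxia replicate 2 or 3, with adjusted p-values up to 0.015 and 0.036.

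COL18A1 was higher in both clones, by 2.53 ± 0.24 in sgXIST7 and 2.14 ± 0.23 in sgXIST9 (adjusted p-values of 5.8e-07 and 2.7e-06); SLC19A1 on the other strand had 33.9 to 39.8 CPM in sgCtl-normoxia and 33.5 to 40.8 in the KD clones. Chains that were lower in both clones were COL4A4 (-3.36 ± 0.40 and -4.49 ± 0.45, adjusted p-values of 8.1e-06 and 1.2e-06), COL4A1 (at least 3.63-fold and 3.31-fold) and COL21A1 (at least 5.12-fold and 4.67-fold). COL21A1, a FACIT of blood vessel walls, had 10, 7 and 17 counts in sgCtl-normoxia, 3, 0 and 0 in sgXIST7 and 0, 1 and 0 in sgXIST9. Its sgXIST7 call was lost without sgCtl-normoxia replicate 1 or 3 or sgXIST7-normoxia replicate 2 or 3, and its sgXIST9 call without sgCtl-normoxia replicate 3 or sgXIST9-normoxia replicate 1 or 3, with adjusted p-values up to 0.028 and 0.019.

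**Figure D4:**
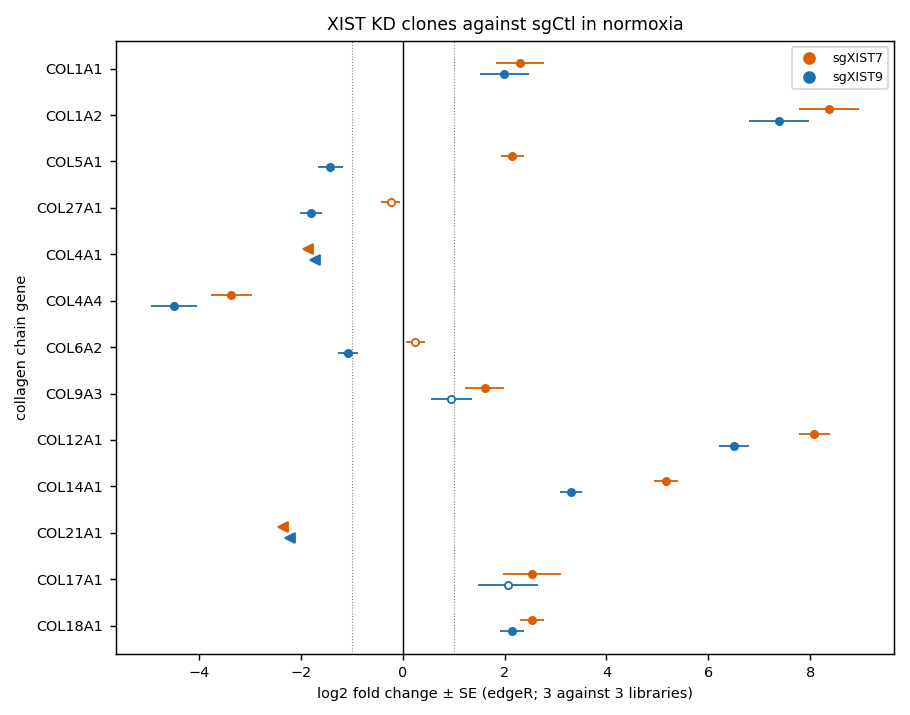
Log2 fold change of each KD clone against sgCtl in normoxia (horizontal axis, points with SE bars, 3 against 3 libraries) for the 13 collagen chain genes called in at least 1 clone, in sgXIST7 (orange) and sgXIST9 (blue). Filled symbols passed the threshold and triangles are lower bounds; COL12A1 and COL1A2 lie farthest to the right in both clones, and COL5A1 lies on opposite sides of 0.

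The clones also differed from each other. COL5A1 was higher in sgXIST7 than in sgCtl by 2.15 ± 0.23 (adjusted p = 2.3e-06) and lower in sgXIST9 (-1.42 ± 0.25, adjusted p = 0.00043). COL27A1 (-1.80 ± 0.21, adjusted p = 5.7e-06) and COL6A2 (-1.08 ± 0.20, adjusted p = 0.00063) were lower in sgXIST9 and not called in sgXIST7 (-0.23 and 0.25). The COL6A2 call fell under the size threshold without sgCtl-normoxia replicate 2 or sgXIST9-normoxia replicate 3. COL6A3 had a mean of 1103 CPM in sgCtl-normoxia and 504.4 in sgXIST9-normoxia, without overlap of libraries, and was not called in the main fit. It was called lower in sgXIST9 with DESeq2, with upper-quartile factors and in the fit of only the groups compared. COL17A1 (2.53 ± 0.57) and COL9A3 (1.61 ± 0.39) were higher in sgXIST7 (adjusted p-values of 0.0035 and 0.006), with 2.06 and 0.95 in sgXIST9 (not called). Leaving out 1 library ended the COL17A1 call in 3 cases (sgCtl-normoxia replicate 2 or 3, sgXIST7-normoxia replicate 1) and the COL9A3 call in 4 (sgCtl-normoxia replicate 1 or 3, sgXIST7-normoxia replicate 1 or 2).

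Tested directly, sgXIST7 was higher than sgXIST9 in normoxia for 6 members and lower for 0 (21.4% against 3.4% of all genes tested; 2.09% of all genes were higher and 1.31% lower). Groups did not overlap for 15 of 28 members, against 40.7% of all genes. These were COL5A1 (3.58 ± 0.25), COL14A1 (1.87 ± 0.19), COL12A1 (1.58 ± 0.23), COL27A1 (1.57 ± 0.21), COL6A3 (1.40 ± 0.30) and COL6A2 (1.32 ± 0.20), with adjusted p-values of 0.005 or less. The COL6A3 call was lost without sgXIST7-normoxia replicate 2 or 3 or any sgXIST9-normoxia library (adjusted p-values up to 0.03). COL1A2 (0.98 ± 0.35, adjusted p = 0.1) and COL18A1 (0.39 ± 0.22, adjusted p = 0.34) did not pass. Residual XIST was 45.0 ± 13.9 CPM in sgXIST9 and 0.161 ± 0.101 in sgXIST7 (SD, n = 3), and its part in these differences cannot be told apart from other differences between the clones.

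In hypoxia, 14 of 28 members were called in sgXIST7 against sgCtl (50% against 14% of all genes tested) and 9 in sgXIST9 (32.1% against 9.53%). In sgXIST7, 8 were higher and 6 lower, against 7.83% and 6.19% of all genes, and in sgXIST9 6 were higher and 3 lower, against 6.14% and 3.39%. Groups did not overlap for 16 members in each, against 40.5% and 33.7% of all genes. COL1A2 had 2, 5 and 3 counts in sgCtl-hypoxia, 125.2, 136.1 and 306.4 CPM in sgXIST7 and 31.6, 34.9 and 69.9 in sgXIST9 (log2 fold changes of 9.76 ± 0.62 and 7.70 ± 0.62). COL12A1 was higher by 6.41 ± 0.29 and 4.93 ± 0.27, and COL14A1, at 193.0, 186.5 and 169.0 CPM in sgXIST7 and 72.5, 71.6 and 69.7 in sgXIST9 against 5.63, 5.96 and 11.1 in sgCtl, by 4.63 ± 0.22 and 3.27 ± 0.21. COL1A1 had 43, 55 and 19 counts in sgXIST7 and 110, 156 and 56 in sgXIST9, against 1, 5 and 2 in sgCtl. It was higher by 3.59 ± 0.58 and 4.91 ± 0.55, and COL18A1 by 1.85 ± 0.23 and 1.88 ± 0.23.

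In hypoxia COL4A1 was lower at least 18.5-fold in sgXIST7 and with a log2 fold change of -4.17 ± 0.56 in sgXIST9, and COL4A2 was at least 8.19-fold lower and at -2.87 ± 0.56. The COL4A2 call in sgXIST9 was lost without sgCtl-hypoxia replicate 2. COL21A1 was at least 7.06-fold and 8.22-fold lower, though neither call held in the fit of only the groups compared (adjusted p-values of 0.014 and 0.012), nor the one in sgXIST7 without hypoxia replicate 3 of all clones (0.011). It had 13, 12 and 27 counts in sgCtl-hypoxia, 2, 3 and 0 in sgXIST7-hypoxia and 0, 0 and 1 in sgXIST9-hypoxia. In sgXIST7, COL13A1 (1.80), COL27A1 (1.24) and COL5A1 (1.91) were higher as well, and COL4A4 (-2.30), COL24A1 (-2.69) and COL23A1 (-2.18) were lower. In sgXIST9, COL17A1 was also higher (2.13 ± 0.44), a call that ended without sgXIST9-hypoxia replicate 2. In sgXIST7, the COL13A1 call was lost without sgCtl-hypoxia replicate 1 or 2 or sgXIST7-hypoxia replicate 3, the COL24A1 call without sgCtl-hypoxia replicate 1 or sgXIST7-hypoxia replicate 2 or 3, and the COL23A1 call without any sgCtl-hypoxia library or sgXIST7-hypoxia replicate 2 or 3. Without hypoxia replicate 3 of all clones, COL13A1 was 2.45 ± 0.29 in sgXIST7 and 1.41 ± 0.29 in sgXIST9, and both passed (adjusted p-values of 3.4e-06 and 0.00095).

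**Figure D5:**
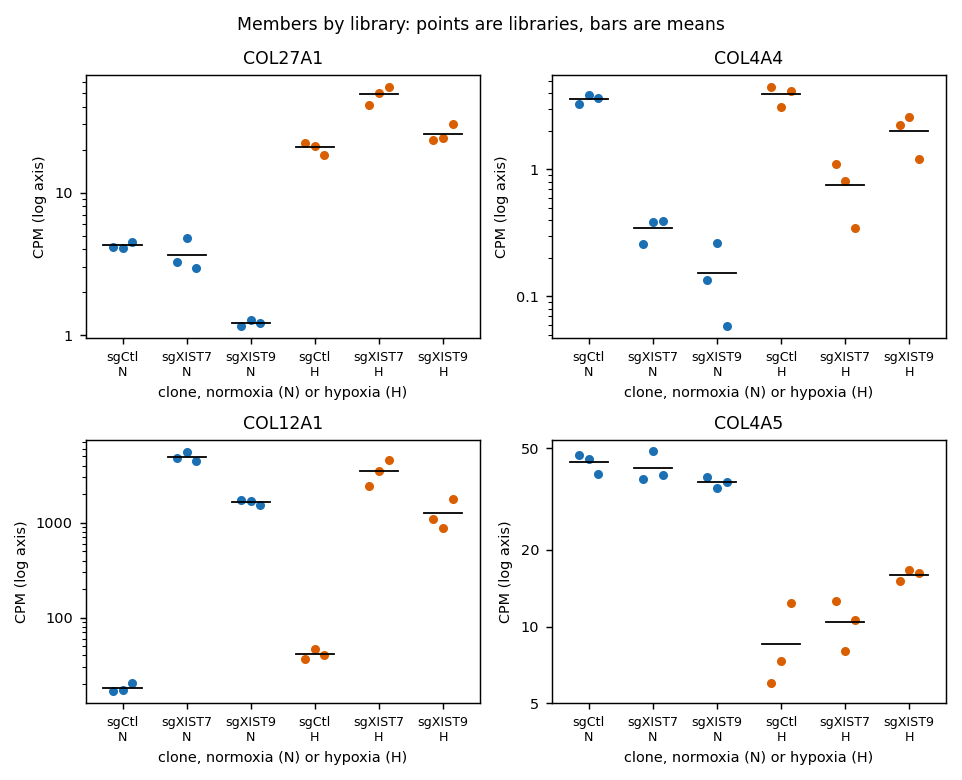
CPM of COL27A1, COL4A4, COL12A1 and COL4A5 in each library (points, log axis; bars are means of 3 libraries), in normoxia (N, blue) and hypoxia (H, orange) for sgCtl, sgXIST7 and sgXIST9. COL27A1 starts lowest in sgXIST9 (1.16 to 1.28 CPM) and rises in all clones, COL4A4 is low in both KD clones in normoxia, COL12A1 is high in the KD clones in both conditions, and COL4A5 falls in all clones in hypoxia.

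The responses to hypoxia differed between a KD clone and sgCtl for 2 members in sgXIST7 (COL27A1 and COL12A1; 1 higher and 1 lower; 7.14% against 1.52% of all genes tested, 0.904% higher and 0.616% lower) and 2 in sgXIST9 (COL27A1 and COL4A4; both higher; 7.14% against 1.01%, 0.663% higher and 0.348% lower). Without hypoxia replicate 3 of all clones, 3 and 8 members were called, with COL6A3 added in sgXIST7 and COL6A3, COL6A2, COL5A1, COL5A2, COL4A5 and COL12A1 added in sgXIST9. Beyond the calls given above, that fit added others among the members tested with all libraries. In hypoxia against sgCtl, these were COL11A1 (-3.54 ± 0.77) and COL6A3 (1.34 ± 0.15) in sgXIST7. In sgXIST9 they were COL4A5 (1.24 ± 0.19) and COL24A1 (-2.495 ± 0.57). For hypoxia against normoxia, they were COL17A1 in sgCtl (2.18 ± 0.57) and COL4A1 (5.18 ± 1.13) and COL1A1 (1.44 ± 0.40) in sgXIST9.

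Tested members that were not called in any contrast of the main fit were COL5A2 and COL3A1, and COL11A1 and COL16A1 with at most 32 and 26 counts. COL11A1 had 15, 21 and 22 counts in sgCtl-normoxia, 3, 5 and 2 in sgXIST7-normoxia and 11, 9 and 5 in sgXIST9-normoxia. In the fit of only the groups compared, it was called lower in both KD clones in normoxia. COL24A1, a fibrillar chain (at most 76 counts), was called in the contrast of sgXIST7 with sgCtl in hypoxia. With the replicate number as a block, it was also called lower in sgXIST7 in normoxia (-1.92 ± 0.50), in sgXIST9 in normoxia (-2.25 ± 0.52) and in sgXIST9 in hypoxia (-1.98 ± 0.48). Same-numbered libraries deviated together in the first and the last of these contrasts and not in sgXIST9 in normoxia. Without the block the values were -2.09, -2.32 and -2.17 (adjusted p-values of 0.024, 0.016 and 0.012, not called). DESeq2, also without a block, called COL24A1 lower in sgXIST9 in both conditions. Without hypoxia replicate 3 of all clones, its value in sgXIST9 in hypoxia was -2.495 ± 0.57 and passed. The 16 members that did not pass the filter were COL9A2 (at most 15 counts in any library), COL8A1 (14), COL11A2 (13), COL4A6 (12), COL2A1 (10), COL15A1 (8), COL4A3 (6), COL25A1 (5), COL28A1 (5), COL19A1 (4), COL10A1 (3), COL22A1 (3), COL26A1 (2), COL6A5 (1), COL6A6 (1) and COL9A1 (1). They include type II collagen of cartilage, type X of growth plates and the third and sixth chains of type IV.

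Other genes of the collagen pathway are given by count. Of 16 genes of intracellular processing, all tested, 7, 8 and 6 rose and 2, 1 and 1 fell in hypoxia in sgCtl, sgXIST7 and sgXIST9; of all genes tested, 11.3%, 15.1% and 14.7% were higher and 8.49%, 12.2% and 8.58% lower. P4HA1, the catalytic subunit of prolyl 4-hydroxylase, rose by 3.90, 3.88 and 4.36 on the log2 scale, P4HA2 by 3.51, 3.43 and 3.15, and the lysyl hydroxylases PLOD2 (3.96, 4.19 and 3.93) and PLOD1 (2.08, 2.32 and 2.38) rose as well. P3H3, a member of the prolyl 3-hydroxylase family, fell in all clones (-1.51, -1.17 and -1.23). Of 4 crosslinking genes tested, LOX and LOXL2 rose in each clone (LOXL2 by 1.83, 1.30 and 1.63), and 0 of 4 secretion genes (MIA3, MIA2, SEC23A, SEC24D) were called in hypoxia. Of 7 procollagen cleavage genes tested, PCOLCE and ADAMTS14 fell in sgCtl, TLL2 rose in sgXIST7, and TLL2 and ADAMTS14 rose in sgXIST9.

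In the KD clones in normoxia, 1 of the 16 processing genes was higher (PLOD1) and 1 lower (COLGALT2) in sgXIST7, and 1 was lower (COLGALT2) in sgXIST9, where 7.76% and 7.7% of all genes were called. The list's median log2 fold change was 0.40 and 0.26, against -0.01 and -0.02 over all genes, and its summed level was 1480 to 1590 CPM in sgCtl, 2005 to 2090 in sgXIST7 and 1742 to 1764 in sgXIST9, without overlap. Of 4 crosslinking genes tested, LOXL1 (5.84 ± 0.50), LOXL2 (1.34 ± 0.23) and LOXL3 (2.16 ± 0.36) were higher in sgXIST7 and 0 were called in sgXIST9. LOXL1 had 9.34, 10.7 and 11.6 CPM in sgXIST7-normoxia and at most 0.403 in any sgCtl or sgXIST9 library. Of 7 procollagen cleavage genes tested, 3 were higher and 1 lower in sgXIST7, and 1 was higher and 2 lower in sgXIST9. PCOLCE2, an enhancer of procollagen cleavage, was higher in both (1.84 and 1.49), and ADAMTS14, a procollagen N-proteinase, was lower in both (-1.87 and -2.02). PCOLCE (1.12) and the C-proteinase BMP1 (1.09) were higher in sgXIST7, and TLL1, a related proteinase, was lower in sgXIST9 (-4.53). Of 5 collagen receptors tested, the integrin subunits ITGA2 (-4.57 ± 0.27) and ITGA1 (at least 6.09-fold) were lower in sgXIST9, and ITGA10 was higher in both clones (2.29 and 1.81). ITGA2 had 46.2 to 47.2 CPM in sgCtl, 38.8 to 41.3 in sgXIST7 and 1.49 to 2.57 in sgXIST9. Of 5 genes of degradation and uptake tested, 0 were called in normoxia in either KD clone, and in hypoxia against normoxia MMP9 and MRC2 rose in both KD clones and CTSK in sgCtl.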

How the data were processed

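RNA-seq was analyzed from 18 libraries in 6 groups of 3. Per the labels, RNA was extracted with Trizol and stranded total RNA libraries were made; per the submitters' processing notes, reads were handled with Trimmomatic, FastQC and HISAT2 on hg38, and, per the study's methods, counted with featureCounts, and the authors compared groups with DESeq2. The values used are the counts deposited by the authors, whole numbers per gene without normalization, for 28277 genes; 2 broken lines were left out. The members and all gene lists were chosen with earlier results of these data known. Counts were tested with edgeR 4.0.16 (R 4.3.3; glmQLFit, robust, and glmQLFTest) in 1 fit of the 6 groups, with TMM factors (0.859 to 1.115), filterByExpr (minimum count 10, total 15) and Benjamini-Hochberg adjustment over 14938 genes; calls needed an adjusted p-value under 0.01 and a log2 fold change above 1 in size. CPM are counts over the TMM-scaled total, and 3 counts in each library of a group were the detection limit, against which bounds were computed; bounds and limits cover counting error only. Values in every library, or their range where near the detection limit, were given for members called for hypoxia, called in the same direction in both KD clones in normoxia, or among the 6 highest per kilobase. Alternatives were DESeq2 1.42.0, median-of-ratios and upper-quartile factors, no filter, a mean CPM of at least 1, only the groups compared, the replicate block, an adjusted p-value under 0.05 and libraries left out. The scripts were tested on simulated data. Same-numbered replicates deviated together (every correlation over 0.1) in 2 of 15 pairs of groups, sgCtl with sgXIST7 in normoxia and sgCtl with sgXIST9 in hypoxia, and nothing in the labels pairs them. Only 3 against 3 libraries were compared, for which an exact permutation test could not go below p = 0.1, so none was run.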

Additional observations from a re-analysis of the deposited data

Results flagged for a closer look

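The response to hypoxia differed from that in sgCtl, by the interaction contrast of the edgeR fit, for 4 values. For COL27A1 the difference was 1.47 on the log2 scale in sgXIST7 (adjusted p = 0.0027) and 2.12 in sgXIST9 (adjusted p = 0.00031), with a larger rise in hypoxia in both KD clones. For COL12A1 it was -1.68 in sgXIST7 (adjusted p = 0.0064), with a rise in sgCtl and none called in sgXIST7. For COL4A4 it was 3.54 in sgXIST9 (adjusted p = 0.0025), with a rise called in sgXIST9 and a log2 fold change of 0.12 in sgCtl. The calls of COL27A1 and COL12A1 in sgXIST7 and of COL4A4 in sgXIST9 were each lost without certain libraries, as given above. COL4A4 had 3, 5 and 1 counts in sgXIST9-normoxia, near the detection limit.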

How the results depend on the processing

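Over all alternatives, 0 calls of a member turned direction; of 1316 values of called members, 1190 kept their call, 95 lost it in the test and 31 were not tested, all of these 31 with a mean CPM of at least 1 or in the fit of only the groups compared, where the chain did not pass the filter. The numbers of members called moved by over 1.5 times as follows. With a mean CPM of at least 1, which left 19 members, 6 were called for hypoxia in sgCtl and 6 in sgXIST7. In the fit of only the groups compared, 1 member differed in its response in sgXIST7. For the response in sgXIST9 minus that in sgCtl, 5 were called by DESeq2, 6 at an adjusted p-value under 0.05 and 8 without hypoxia replicate 3 of all clones. Leaving out 1 library at a time gave 9 to 13, 8 to 11 and 11 to 15 members for hypoxia in sgCtl, sgXIST7 and sgXIST9. For each KD clone against sgCtl in normoxia it gave 8 to 10, below the 11 called with all libraries. In hypoxia it gave 11 to 15 for sgXIST7 and 8 to 13 for sgXIST9. It gave 5 to 6 for sgXIST7 against sgXIST9, and 0 to 4 and 1 to 8 for the differences in response in sgXIST7 and sgXIST9. The highest values for these differences came without sgCtl-hypoxia replicate 3 (4 and 8 members), and the 0 without sgCtl-normoxia replicate 3 or sgXIST7-normoxia replicate 3; the cause was not tested. With the replicate number as a block, 11, 10 and 15 members were called for hypoxia, 12 and 13 for the KD clones in normoxia, 15 and 10 in hypoxia, 6 for sgXIST7 against sgXIST9, and 2 and 3 for the differences in response, and no call was lost. The block added COL24A1 to both KD clones in normoxia and to sgXIST9 in hypoxia, COL6A3 to sgXIST9 in normoxia and sgXIST7 in hypoxia, COL17A1 to hypoxia in sgCtl, COL4A1 and COL1A1 to hypoxia in sgXIST9, and COL12A1 to the difference in response in sgXIST9. DESeq2 without a block also added part of these. They were COL24A1 in sgXIST9 in both conditions, COL6A3 in sgXIST9 in normoxia and COL17A1 for hypoxia in sgCtl. COL4A1 for hypoxia in sgXIST9 and COL12A1 for the difference in response in sgXIST9 were the others. Chains with few counts (COL5A3, COL8A2, COL21A1, COL4A2) are limited by depth. With upper-quartile factors the median of all genes for hypoxia in sgXIST9 was 0.17, against 0.09.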

Other observations

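Ratios of chains within a library, per kilobase, had the following ranges. COL5A2 was 596 to 743 times COL5A1 in sgCtl-normoxia, 96.8 to 178 times in sgXIST7-normoxia and 910 to 1080 times in sgXIST9-normoxia, and 199 to 451, 91.1 to 123 and 179 to 340 times in hypoxia. COL6A1 was 1.34 to 1.99 times COL6A2 in sgCtl-normoxia, 1.80 to 2.15 times in sgXIST7 and 3.90 to 4.28 times in sgXIST9. These COL6A1 ranges overlapped between sgCtl and sgXIST7. COL1A2 over COL1A1 in hypoxia was 1.17 to 2.34 in sgCtl, 63.8 to 218 in sgXIST7 and 5.75 to 23.1 in sgXIST9, and in normoxia it was 0.146 to 1.00 in sgCtl, 27.4 to 90.9 in sgXIST7 and 21.2 to 27.7 in sgXIST9, with both chains at 10 counts or fewer in sgCtl. COL12A1 over COL3A1 was 0.00810 to 0.0105 in sgCtl-normoxia, 1.95 to 2.67 in sgXIST7 and 1.25 to 1.37 in sgXIST9. These are descriptions of 3 libraries per group and were not tested.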
